A study of Mus musculus with 6 samples.

Results

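Integrins are the receptors through which chondrocytes hold on to their matrix, and 10 of their chains were followed here in cultured mouse chondrocytes with and without periostin. The genes were *Itgav*, *Itgb3*, *Itgb5*, *Itgb8*, *Itga5*, *Itga3*, *Itga6*, *Itga7*, *Itga8* and *Itga9*. They were taken by name as receptor chains for periostin, fibronectin and laminin. All 10 were found among the 41388 genes of the files, and all 10 were among the 14533 genes tested after low counts were left out. The cells were primary chondrocytes of the femoral head cartilage of 21-day-old male B6/129 mice, cultured for 2 days without treatment. There were 3 samples of homozygous Postn-/- mice, in which *Postn* is deleted in the whole animal, and 3 of wt mice. The methods give as many mice as samples for each genotype, while the labels do not tie samples to mice. RNA-seq reads were 50 bases long.

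An integrin is a pair of an alpha and a beta chain, each crossing the membrane once. The outer parts bind matrix proteins, and the short inner tails recruit talin, kindlin and kinases that link the receptor to actin. The alpha v chain pairs with several beta chains and reads the arginine-glycine-aspartate motif of vitronectin and fibronectin. Together with beta 3 or beta 5 it is a known receptor for periostin. Alpha 5 with beta 1 is the classical fibronectin receptor of chondrocytes, and alpha 3, alpha 6 and alpha 7 form laminin receptors.

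The 7 alpha chains share a short stretch at the start of the inner tail, by which the chain clasps its beta partner. The stretch was searched for in the open reading frames of the GENCODE M21 transcripts (GRCm38) as codons for glycine, phenylalanine, phenylalanine, any residue and arginine. It was found in all 7. The 15 capitals are these codons, with 15 bases of coding sequence on each side, and each position is that of the capitals.
*Itgav*, chr2:83803243-83803257, plus strand: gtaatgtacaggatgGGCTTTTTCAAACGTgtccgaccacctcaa
*Itga5*, chr15:103345335-103345349, minus strand: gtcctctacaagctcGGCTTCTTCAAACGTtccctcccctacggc
*Itga8*, chr2:12109184-12109198, minus strand: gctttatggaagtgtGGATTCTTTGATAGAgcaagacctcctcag
*Itga9*, chr9:118897237-118897251, plus strand: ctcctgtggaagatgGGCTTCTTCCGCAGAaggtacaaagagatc
*Itga3*, chr11:95046573-95046587, minus strand: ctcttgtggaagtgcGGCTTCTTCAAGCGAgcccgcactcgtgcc
*Itga6*, chr2:71855857-71855871, plus strand: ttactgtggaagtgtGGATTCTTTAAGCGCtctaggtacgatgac
*Itga7*, chr10:128957624-128957638, plus strand: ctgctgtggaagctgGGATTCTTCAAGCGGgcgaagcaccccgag
The fourth codon was that of lysine in *Itgav*, *Itga5*, *Itga3*, *Itga6* and *Itga7*. It was that of aspartate in *Itga8* and of arginine in *Itga9*. In spite of the common motif, reads of these genes could mostly be told apart. Of all 50-base words in their transcripts, 7.26% of those of *Itgb5*, 5.40% of *Itgav*, 5.31% of *Itga6* and 4.01% of *Itga8* also occur in transcripts of another gene. For the other 6 members the share was between 0% and 0.207%. Exons of *Itgav* overlap those of the opposite-strand gene *Gm13684* over 5.9% of their bases, and exons of *Itga8* overlap *E030013I19Rik* over 5.07%.

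*Itga5* and *Itgb5* had the highest levels of the alpha and of the beta members, and *Itga8* and *Itgb8* were among the lowest. The 150 bases before the RefSeq transcription start (GRCm38.p6) of these 4 genes are shown for that reason. The lowest beta member was *Itgb3*, which had no promoter entry, so *Itgb8* is shown instead. Capitals mark the letters GGGCGG or, on the other strand, CCGCCC, the core of the GC box that Sp1-type factors bind.
*Itga5*, chr15:103366792-103366941, minus strand: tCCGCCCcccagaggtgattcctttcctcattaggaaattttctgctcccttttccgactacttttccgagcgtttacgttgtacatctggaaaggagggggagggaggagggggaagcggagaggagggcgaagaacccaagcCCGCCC
*Itgb5*, chr16:33829515-33829664, plus strand: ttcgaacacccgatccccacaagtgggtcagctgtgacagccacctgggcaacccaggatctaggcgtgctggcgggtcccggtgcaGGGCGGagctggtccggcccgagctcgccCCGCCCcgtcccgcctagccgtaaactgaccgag
*Itgb8*, chr12:119238277-119238426, minus strand: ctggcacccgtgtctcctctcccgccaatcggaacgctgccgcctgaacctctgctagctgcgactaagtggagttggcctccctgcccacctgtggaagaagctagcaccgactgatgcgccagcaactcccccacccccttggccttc
*Itga8*, chr2:12301945-12302094, minus strand: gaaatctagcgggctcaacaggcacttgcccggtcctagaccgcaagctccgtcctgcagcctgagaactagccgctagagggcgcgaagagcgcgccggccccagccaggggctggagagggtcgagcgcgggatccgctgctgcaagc
The promoter table held 7 of the 10 members, with 2 starts for *Itga3*, and gives 250 bases before and 50 after each start. In these windows GGGCGG was found on either strand 3 times at *Itgb5*, 2 times at *Itga5* and 1 time at *Itgav*. It was found 3 times at the first start of *Itga3* and 1 time at the second. It was not found in the windows of *Itgb8*, *Itga8* and *Itga9*. Of all 32851 windows of this length, 35.7% hold it. TATAAA was in none of the 8 member windows and in 13.6% of all windows. CCAAT was in the window of *Itgb8* and at the second start of *Itga3*, and in 37.4% of all windows. The AP-1 type motif TGANTCA was at *Itga9* and at the second start of *Itga3*, and in 7.81% of all windows. The windows held between 52.3% and 67.3% G and C, against a median of 52.7% over all promoters. The windows of *Itga9* and *Itgb8*, and that of the second start of *Itga3*, lie wholly inside the genes as the files give them, so they are not upstream of the outermost start.

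The counts summed to between 20587640 and 26572260 per sample, and a count of 3 corresponded to between 0.113 and 0.146 CPM (reads relative to library size). All 10 chondrocyte markers on the list, among them *Sox9*, *Col2a1* and *Acan*, were above 1 CPM in every sample, with sums of 31880 to 42473 CPM in Postn-/- and 24919 to 38243 in wt. The sums of 6 fibroblast markers were 1963 to 3960 and 2569 to 4131 CPM, and those of 6 endothelial markers 6.83 to 11.3 and 5.15 to 9.68. Of the 10 chondrocyte markers, 2 reached an unadjusted p of 0.05 with edgeR, against 6.3% of all genes. Both were higher in Postn-/-: *Col2a1*, without overlap, and *Col11a2* (unadjusted p = 0.0125 and 0.0406, adjusted p = 0.717 each from edgeR). The bearing of this on the integrin values was not tested. Sample wt replicate 1 stood apart, with 47.7 on the first principal component against at most −0.02 for each of the others. The targeted gene *Postn* (chromosome 3) had 4.66, 4.27 and 5.67 CPM in the Postn-/- samples against 10.1, 10.3 and 6.90 in those of wt. These counts fell on the whole gene, and the files do not show which exons they came from. The fitted log2 fold change of *Postn*, Postn-/- over wt, was −0.91 (SE 0.22, unadjusted p = 0.00362 and adjusted p = 0.717 from edgeR). The deleted gene itself therefore did not reach an adjusted p of 0.05. None of the 10 members lies on chromosome 3. *Itgav*, *Itga6* and *Itga8* lie on chromosome 2, and *Itgb3* and *Itga3* on chromosome 11.

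The first question was which of these receptor chains the chondrocytes made, and how much of each. Levels between genes are given as RPKM, which is normalized CPM per kilobase of the exon length in the files. *Itga5* stood far above the rest at 41.7 ± 6.23 RPKM (mean ± SD over the 6 samples of both genotypes, as are the next values). It made up 60.1% of the summed mean RPKM of the 10 members. *Itgb5* followed at 12.1 ± 1.91 RPKM, *Itga6* at 7.79 ± 2.87 and *Itgav* at 3.57 ± 0.596. *Itga7* was at 1.58 ± 0.425 RPKM and *Itga3* at 1.396 ± 0.382. The remaining 4 chains were below 1 RPKM in every sample: *Itgb8* at 0.451 ± 0.215, *Itga9* at 0.384 ± 0.0987, *Itgb3* at 0.229 ± 0.0626 and *Itga8* at 0.182 ± 0.104. Among the 14533 tested genes, *Itga5* was at the 89.7th percentile of mean RPKM, *Itgav* at the 49.7th and *Itga8* at the 2.11th. The targeted gene *Postn*, at 0.892 RPKM on average, was at the 23rd.

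**Figure D1:**
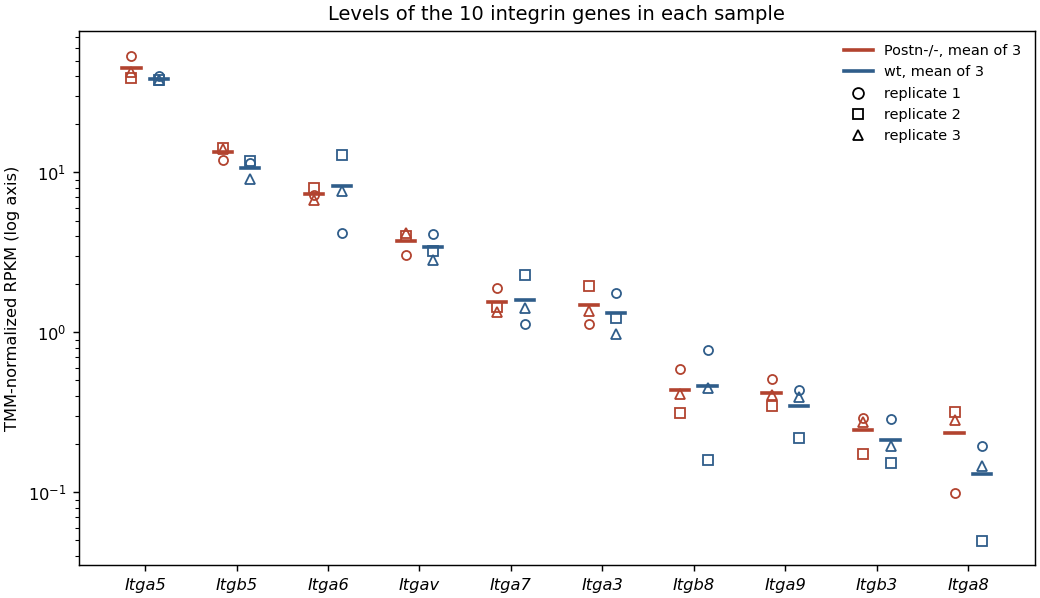
TMM-normalized RPKM (log axis) of the 10 integrin genes in each of the 6 samples, ordered by mean level. Red marks are Postn-/- and blue marks wt, circles, squares and triangles are replicates 1, 2 and 3, and bars are the mean of 3. *Itga5* lies above all others in every sample, between 37.6 and 53.8 RPKM, and *Itga8* reaches at most 0.319.

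The order of these levels was firm at 3 places, where the lowest sample of a gene lay above the highest sample of the next. *Itga5* exceeded *Itgb5* in this way, at 3.45 times its mean level. *Itgav* exceeded *Itga7* at 2.26 times, and *Itga3* exceeded *Itgb8* at 3.10 times. The other neighbours overlapped over the samples. *Itgb5* was above *Itga6* in 5 of 6 samples, the exception being wt replicate 2. *Itga7* was above *Itga3* in 3 of 6, *Itgb8* above *Itga9* in 4 of 6, and *Itgb3* above *Itga8* in 4 of 6. *Itga6* was above *Itgav*, and *Itga9* above *Itgb3*, in all 6 samples although their ranges touched.

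By role, the fibronectin receptor chain *Itga5* led the alpha members in every sample. It held between 65.3% and 79.5% of their summed RPKM. The beta 1 chain *Itgb1*, which pairs with all 7 alpha members, was at 70.5 RPKM and 1.32 to 2.11 times as high as *Itga5* in the 6 samples. Of the beta chains listed here, each of which pairs with alpha v, *Itgb5* dominated. It held 91.4% to 97.4% of the RPKM of the 3, *Itgb8* 1.33% to 6.26% and *Itgb3* 1.17% to 2.31%. Within every sample the RPKM of *Itgb5* was also 2.77 to 3.91 times that of *Itgav*. This ratio rests on the exon lengths used, 3362 bases for *Itgb5* and 10744 for *Itgav*, whether or not all exons were expressed. Before division by length their means over the 6 samples were 40.6 and 38.3 CPM. In wt replicate 1 alone *Itgav* was then the higher, at 44.1 against 38.2 CPM. The log2 ratio of *Itgb3* to *Itgb5* was −5.80 ± 0.52 over the 3 Postn-/- samples and −5.70 ± 0.49 over the 3 wt samples (± SD), and that of *Itgb8* to *Itgb5* was −4.98 ± 0.59 and −4.80 ± 1.23. Both ratios overlapped between genotypes.

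The second question was whether any of these chains differed between Postn-/- and wt chondrocytes. With edgeR (quasi-likelihood, Benjamini-Hochberg over all 14533 genes), 0 of the 10 members reached an adjusted p of 0.05, against 0.0138% of all genes. An unadjusted p of 0.05 was reached by 1 member, *Itgb5*, which was higher in Postn-/-. Of all genes 6.3% reached it, 3.95% as higher and 2.35% as lower in Postn-/-. The genotypes did not overlap for 1 of 10 members, against 13.6% of all genes, 7.03% with Postn-/- higher and 6.57% with Postn-/- lower. DESeq2's Wald test gave 0 of the 10 members at the unadjusted threshold and 0 of 8 at the adjusted one, since it gave no adjusted p for *Itgb3* and *Itga8*. The fitted log2 fold change, Postn-/- over wt, was positive for 7 members and negative for 3, and it was positive for 50.8% of all genes. Its median over the members was 0.18, against 0.0042 over all genes. Gene positions below are on GRCm38, values by sample are normalized CPM in the order of replicates 1, 2 and 3, and bulk RNA cannot tell fewer expressing cells from less RNA per cell.

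**Figure D2:**
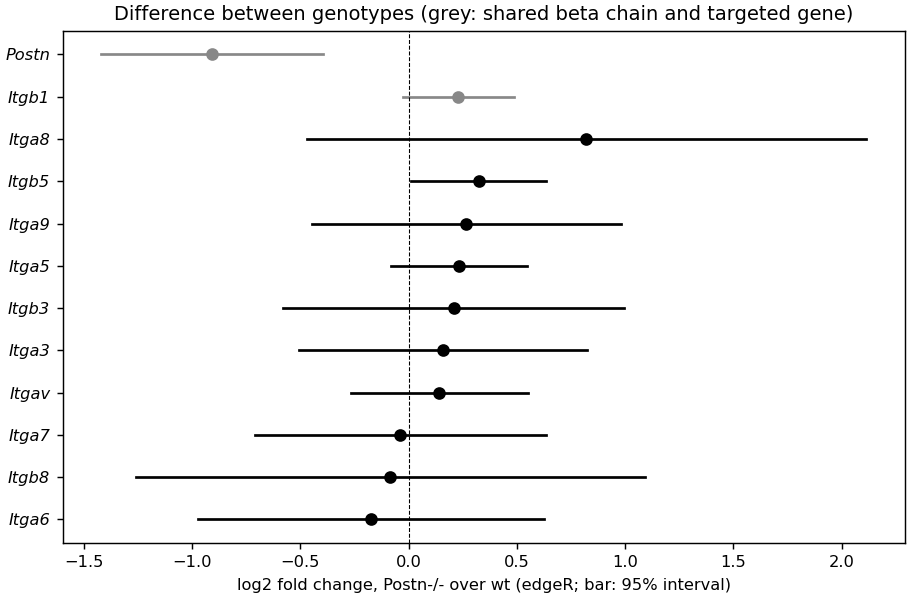
Log2 fold change, Postn-/- over wt, of the 10 integrin genes (black) and of *Itgb1* and *Postn* (grey), from edgeR, with 95% intervals as bars. Of the members, the interval of *Itgb5* alone lies above 0, from 0.01 to 0.64, and that of *Itga8* is the widest, from −0.47 to 2.11.

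*Itgb5* (chromosome 16, 33829665 to 33949153, plus strand), the beta chain of the vitronectin and periostin receptor alpha v beta 5, read 40.3, 48.0 and 47.1 CPM in the Postn-/- samples against 38.2, 39.4 and 30.5 in those of wt. All Postn-/- samples lay above all wt samples. The closest pair was 40.3 against 39.4 CPM. The means were 45.2 ± 4.23 and 36.0 ± 4.81 CPM (n = 3 each, ± SD). Its log2 fold change was 0.33 (SE 0.13, 95% interval 0.01 to 0.64, unadjusted p = 0.0429 and adjusted p = 0.717 from edgeR), so *Itgb5* did not pass. An exact two-sided permutation test of the log2 values gave p = 0.1, the smallest that 3 samples against 3 allow. Without Postn-/- replicate 2, Postn-/- replicate 3 or wt replicate 3, its log2 fold change was 0.28, 0.29 and 0.22, and its unadjusted p in edgeR was 0.120, 0.120 and 0.149.

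*Itgav* (chromosome 2, 83724397 to 83806916, plus strand), the alpha partner of all 3 beta members, read 32.9, 42.7 and 45.1 CPM in the Postn-/- samples against 44.1, 34.9 and 30.3 in those of wt. Its lowest Postn-/- sample and its highest wt sample, both of replicate number 1, kept the genotypes overlapping. On the log2 scale the difference was 0.14 (95% interval −0.27 to 0.55, adjusted p = 0.842 from edgeR). With a sample left out it lay between 0.02, without wt replicate 3, and 0.30, without wt replicate 1, and it was 0.05 without Postn-/- replicate 3. *Itgb3* (chromosome 11, 104608000 to 104670476, plus strand), the other beta chain of periostin receptors and the chain of the classical vitronectin receptor, had few reads. It was counted with 43, 25 and 34 reads in Postn-/- and with 44, 20 and 24 in wt. At 20 to 44 reads the counting error was 22.4% to 15.1% (which leaves out variation between samples), against a spread (SD over the mean) of 26.3% within Postn-/- and 32.2% within wt. Its fitted log2 difference was 0.21 (95% interval −0.58 to 0.99, adjusted p = 0.885 from edgeR). It was 0.02 without wt replicate 2, 0.06 without Postn-/- replicate 1 and 0.50 without wt replicate 1.

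*Itgb3* is also made by platelets and osteoclasts, which a cartilage digest could hold. Of 10 macrophage and osteoclast markers, 5 were above 1 CPM in all samples. Their summed level was 368 to 481 CPM in Postn-/- and 326 to 439 in wt, most of it *Ctsk*, which was at 389 and 352 CPM on average and which other cells also express. The osteoclast marker *Acp5* averaged 18.4 CPM over the Postn-/- samples and 21.1 over wt, and the macrophage marker *Cd68* 16.9 and 11.4 CPM. The osteoclast markers *Calcr*, *Dcstamp* and *Ocstamp* averaged under 1 CPM in both genotypes, and none of the 10 markers was at 0 in all samples. Of 6 megakaryocyte and platelet markers, 4 were under 1 CPM in every sample and the sum was 4.43 to 5.57 CPM in Postn-/- and 4.12 to 5.70 in wt. The part of such cells in the low *Itgb3* counts was not tested.

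*Itgb8* (chromosome 12, 119158022 to 119238802, minus strand), whose dimer with alpha v releases active TGF-beta from its latent complex, had the largest spread within wt of the 10 members. It read 6.51, 3.46 and 4.57 CPM in the Postn-/- samples against 8.61, 1.76 and 4.98 in those of wt. The wt values enclosed all Postn-/- values. The spread within wt was 66.9%, well above the counting error of 6.68% to 16.0%. Its log2 fold change was −0.08 (95% interval −1.26 to 1.09, adjusted p = 0.972 from edgeR), and without wt replicate 1 it was 0.53. The difference of the mean log2 CPM had the other sign, at 0.15.

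**Figure D3:**
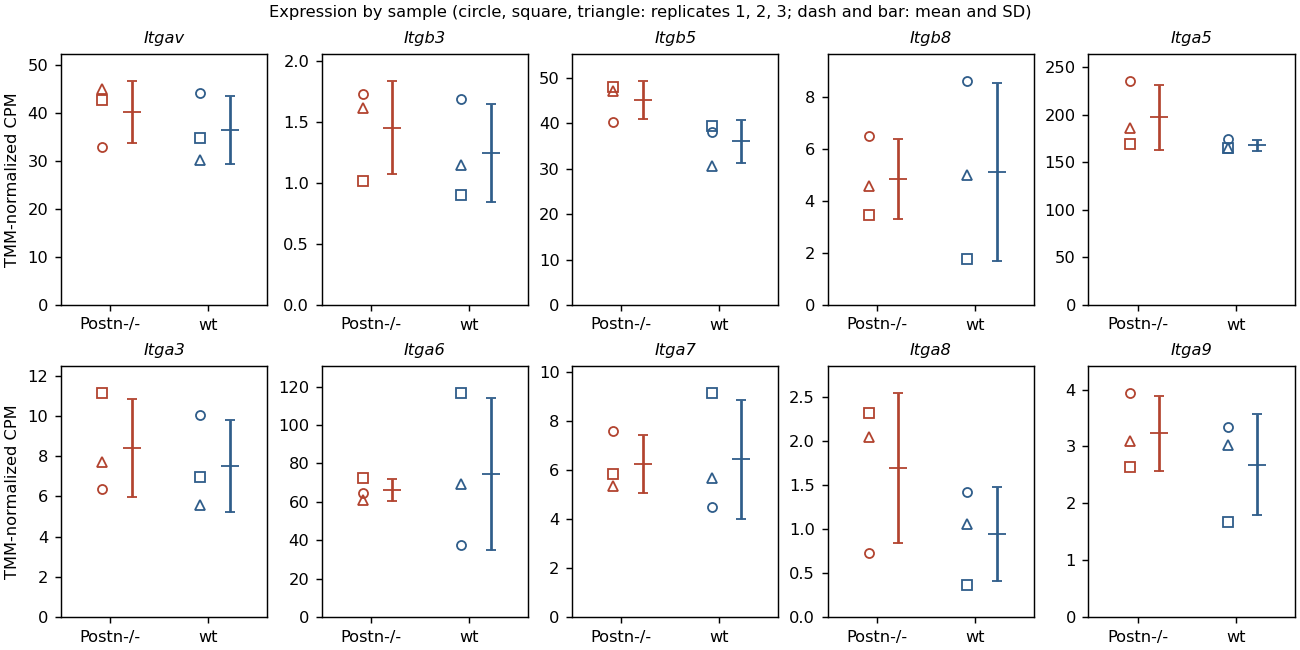
TMM-normalized CPM of each of the 10 genes by sample, with each vertical axis starting at 0. Circles, squares and triangles are replicates 1, 2 and 3, and the dash and bar are the mean and SD of 3. *Itgb5* has no overlap between genotypes, while for *Itga6* and *Itgb8* the wt samples span 37.6 to 117 and 1.76 to 8.61 CPM and enclose all Postn-/- samples.

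*Itga5* (chromosome 15, 103344289 to 103366763, minus strand), the alpha chain of the fibronectin receptor, read 236, 169 and 186 CPM in the Postn-/- samples against 174, 164.5 and 164.6 in those of wt. The wt samples were close together, with a spread of 3.35%, and the Postn-/- samples ranged upward from them. One Postn-/- sample, replicate 2, lay below wt replicate 1. The log2 fold change was 0.23 (SE 0.14, 95% interval −0.08 to 0.55, unadjusted p = 0.127 and adjusted p = 0.719 from edgeR). Without Postn-/- replicate 1 it was 0.08, and without Postn-/- replicate 2 it was 0.33 (unadjusted p = 0.0433 from edgeR). *Itgb1*, which is no member but the partner of *Itga5*, averaged 311 ± 21.5 CPM over the Postn-/- samples and 265 ± 20.4 over wt, with no overlap. Its log2 fold change was 0.23 (95% interval −0.02 to 0.49, adjusted p = 0.717 from edgeR).

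*Itga8* (chromosome 2, 12106632 to 12301920, minus strand), whose dimer with beta 1 binds nephronectin, had the fewest reads and the largest fitted difference. It was counted with 18, 57 and 43 reads in Postn-/- and with 37, 8 and 22 in wt. Its counting error at the lowest count was 35.4%. Its fitted log2 difference of 0.82 also had the largest SE (0.56, 95% interval −0.47 to 2.11, adjusted p = 0.735 from edgeR). Without wt replicate 2, which had the 8 reads, it was 0.44. Without wt replicate 1 it was 1.26, and without Postn-/- replicate 1 it was 1.19 (unadjusted p = 0.0865 and 0.0474 from edgeR). *Itga9* (chromosome 9, 118606690 to 118901003, plus strand), the chain of the tenascin-C receptor, read 3.94, 2.64 and 3.10 CPM in the Postn-/- samples against 3.34, 1.67 and 3.02 in those of wt. The genotypes overlapped, and the log2 fold change was 0.27 (95% interval −0.45 to 0.98, adjusted p = 0.833 from edgeR). This was 0.02 without wt replicate 2, 0.10 without Postn-/- replicate 1 and 0.46 without wt replicate 1.

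Of the laminin receptor chains, *Itga6* (chromosome 2, 71745616 to 71858416, plus strand) was by far the highest. It read 64.8, 72.3 and 61.0 CPM in the Postn-/- samples against 37.6, 117 and 69.3 in those of wt. The spread was 53.4% within wt and 8.69% within Postn-/-, at a counting error of at most 3.20%. The log2 fold change was −0.17 (95% interval −0.97 to 0.62, adjusted p = 0.904 from edgeR), and without wt replicate 2 it was 0.31. *Itga7* (chromosome 10, 128933813 to 128958277, plus strand), known mainly as the laminin receptor chain of muscle, had the same lowest and highest samples as *Itga6*. It read 7.59, 5.82 and 5.34 CPM in the Postn-/- samples against 4.50, 9.14 and 5.65 in those of wt. The fitted log2 difference was −0.04 (95% interval −0.71 to 0.64, adjusted p = 0.981 from edgeR), and without wt replicate 2 it was 0.30.

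The summed level of 8 muscle markers, mostly *Acta2*, was 61.0 to 120 CPM in Postn-/- and 71.9 to 161 in wt, and it was highest in wt replicate 3. The skeletal muscle factors *Myod1* and *Myog* were under 1 CPM in every sample. The sum of 4 Schwann cell markers was highest in wt replicate 2, at 15.6 CPM, and lowest in wt replicate 1, at 5.57 CPM, the samples in which *Itga6* and *Itga7* were highest and lowest. Most of that difference was *Mbp*, at 12.5 and 2.42 CPM. Of these markers *Sox10* and *Foxd3* were under 1 CPM in every sample. Their part in the *Itga6* and *Itga7* values was not tested. *Itga3* (chromosome 11, 95044474 to 95076801, minus strand), which also serves as a laminin receptor chain, read 6.39, 11.1 and 7.72 CPM in the Postn-/- samples against 10.03, 6.97 and 5.56 in those of wt. Its genotypes overlapped, with a log2 fold change of 0.16 (95% interval −0.50 to 0.82, adjusted p = 0.897 from edgeR), which was −0.10 without Postn-/- replicate 2 and −0.02 without wt replicate 3.

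Across the members, the lowest of the 6 values lay in a wt sample for all 10, against 53.9% of all tested genes. The highest lay in a Postn-/- sample for 7, against 46.7% of all genes. This was seen after the values were known, the 10 genes share the same samples, and no test was made. Sample wt replicate 2 was the lowest for 5 members, *Itgb3*, *Itgb8*, *Itga5*, *Itga8* and *Itga9*, and the highest for *Itga6* and *Itga7*. Sample wt replicate 1 was the lowest for *Itga6* and *Itga7* and the highest for *Itgb8*.

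The third question was how the genes around these receptors behaved. Of 16 other integrin chains 15 were tested, and 0 reached an adjusted p of 0.05 with edgeR. The only one to reach an unadjusted p of 0.05, which 6.3% of all genes reached, was *Itga10*, the collagen-binding alpha chain typical of cartilage. It lies on chromosome 3 (96645584 to 96664519, plus strand), as *Postn* does (54361109 to 54391034). It read 16.0, 14.9 and 16.7 CPM in the Postn-/- samples against 26.0, 27.4 and 24.8 in those of wt, with no overlap. Its log2 fold change was −0.72 (SE 0.12, 95% interval −0.99 to −0.45, unadjusted p = 0.000288 and adjusted p = 0.597 from edgeR). DESeq2's Wald test gave it an adjusted p of 0.00195, and with a sample left out edgeR gave adjusted p-values between 0.567 and 0.983. The leukocyte chains *Itgal* and *Itgam* had log2 fold changes of 0.49 and 0.44 at 1.10 to 1.77 CPM on average (adjusted p = 0.738 and 0.75 from edgeR). The median over the 15 chains was 0.12.

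Of 28 ligand genes 27 were tested, with 0 at an adjusted p of at most 0.05. Their median log2 fold change was 0.21. The log2 fold change was positive for 18 of the 27, against 50.8% of all genes. At an unadjusted p of at most 0.05 there were *Postn*, lower in Postn-/-, and *Lamb2*, higher. This was 2 of 27, against 6.3% of all genes. *Postn* was deleted by design and reached this threshold in all 14 alternatives too, so each count of ligands includes it. The count ran from 2 to 6 with a sample left out, with 6 without Postn-/- replicate 2 or wt replicate 2. In those fits 1104 of 14277 and 1257 of 14427 genes reached that threshold, against 916 of 14533 in the main analysis. The beta 2 chain of laminin *Lamb2* read 98.8, 92.0 and 90.9 CPM in the Postn-/- samples against 72.3, 71.8 and 76.8 in those of wt, with no overlap. Its log2 fold change was 0.35 (SE 0.09, 95% interval 0.14 to 0.57, unadjusted p = 0.00558 and adjusted p = 0.717 from edgeR). *Fn1*, which encodes fibronectin, the main ligand of alpha 5 beta 1, averaged 12235 CPM over the Postn-/- samples and 11949 over wt (adjusted p = 0.979 from edgeR). *Fbn1*, which encodes the microfibril protein fibrillin-1, had a log2 fold change of 0.34, and *Ccn2*, a matricellular ligand, one of 0.31 (adjusted p = 0.717 each from edgeR). *Vtn*, which encodes vitronectin, was below the limit for testing, at 0.845 and 0.600 CPM on average.

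**Figure D4:**
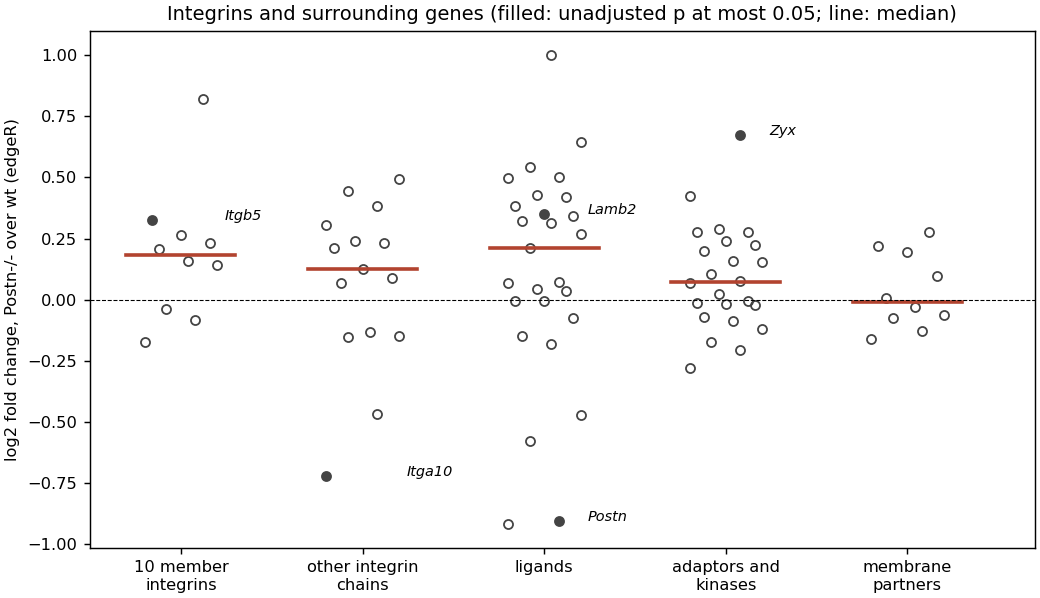
Log2 fold change, Postn-/- over wt, of every tested gene in the list of 10 integrins and in 4 lists of surrounding genes, from edgeR. Filled points have an unadjusted p of at most 0.05, and red lines are medians, which run from −0.01 for membrane partners to 0.21 for ligands.

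Of 25 adaptors, activators and kinases 24 were tested, again with 0 past the adjusted threshold and a median log2 fold change of 0.07. *Zyx*, which encodes the focal adhesion protein zyxin, read 167, 171 and 248 CPM in the Postn-/- samples against 82.0, 127 and 158 in those of wt. The genotypes did not overlap, and the log2 fold change was 0.67 (SE 0.25, unadjusted p = 0.0289 and adjusted p = 0.717 from edgeR). Without Postn-/- replicate 3, wt replicate 1 or wt replicate 2 its log2 fold change was 0.47, 0.45 and 0.70, and its unadjusted p from edgeR was 0.111, 0.0607 and 0.0535. *Itgb1bp1*, a regulator that binds the beta 1 tail, had a log2 fold change of 0.22, and the focal adhesion adaptors *Pxn* and *Vcl* had 0.29 and −0.28 (adjusted p = 0.717, 0.717 and 0.723 from edgeR). *Ilk*, the integrin-linked kinase, was counted with 9 to 19 reads per sample and was not tested. Exons of *Rrp8* and *Taf10* overlap 89.7% of its exon bases, all of it on the opposite strand. The part of this overlap in the low *Ilk* counts was not tested. Of 10 membrane partners all were tested, 0 were at an unadjusted p of at most 0.05, and the median was −0.01. Without wt replicate 1 that count was 2, and without Postn-/- replicate 2 it was 1. Over all genes the counts in those fits were 787 of 14456 and 1104 of 14277. The smallest p-values belonged to *Cd47* at 0.28, the tetraspanin *Cd81* at 0.20, and the syndecans *Sdc4* at −0.16 and *Sdc1* at 0.22 on the log2 scale (adjusted p = 0.719, 0.742, 0.779 and 0.813 from edgeR).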

How the data were processed

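RNA-seq of 6 samples was analysed, 3 Postn-/- and 3 wt, grouped by the sample labels. The authors made libraries from low-input RNA, aligned reads to Ensembl release 76 with STAR 2.0.4b, and deposited raw counts of uniquely aligned unambiguous reads from featureCounts 1.4.5. Whether strand was used is not given in the sources used here. The deposited CPM is the count relative to the file's total and the deposited RPKM is this per kilobase. Both were only checked against the counts. The processing notes name mm9, but the files' coordinates overlap GRCm38 (GENCODE M21) for 99.8% of matched genes. Symbols matched 97.5% of identifiers.

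The filter required more than 1 CPM in 2 or more samples and removed 355 rRNA genes. Counts were TMM-normalized and tested with edgeR 4.0.16 in R 4.3.3 (quasi-likelihood, Benjamini-Hochberg), without covariates. SE is the size of the log2 fold change divided by the root of F. RPKM was computed from the TMM-scaled counts and the files' exon length. On simulated counts for this comparison (14219 genes after the filter), edgeR called 197 of 197 genes changed by 2 on the log2 scale and 13 unchanged ones. All genes were drawn at a common dispersion, and the largest fitted log2 fold change of a member was 0.82. The simulation therefore does not show how often changes of that size would be called. No samples were repeats (lowest chi-square per degree of freedom 36.5 over 15 pairs).

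Alternatives were voomWithQualityWeights (limma 3.58.1), alone or with 2 surrogate variables from sva 3.50.0, DESeq2 1.42.0, other normalizations and filters, a replicate block, and omitting each sample. Members and lists were chosen with earlier results of these data known. Genes named were the members, *Postn*, *Itgb1* and up to 4 genes per list with the smallest p. *Fn1*, *Vtn*, *Ilk* and the markers named were chosen after their values were seen. A marker gene of the lists is not reported here and was left out of its sum.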

Additional observations from a re-analysis of the deposited data

How the results depend on the processing

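No member had an adjusted p of at most 0.05 under any alternative that gave it one; DESeq2's Wald test gave none for *Itgb3* and *Itga8*. The number of members reaching an unadjusted p of 0.05, 1 in the main analysis, was 0 with DESeq2 size factors, without a filter, with DESeq2's Wald test and with the replicate block, 3 with voomWithQualityWeights and surrogate variables, and 0 to 2 with a sample left out, 0 without Postn-/- replicate 3 or wt replicate 3. Over all genes, adjusted calls, 2 in the main analysis, were 1 with upper quartile normalization, 9 without a filter, 0 with CPM above 1 in all 6 samples (806 reached an unadjusted p of 0.05), 11 with DESeq2's test, 1 and 3 with voomWithQualityWeights without and with surrogate variables, 1 with the replicate block, and 1 to 2 with a sample left out. Unadjusted calls, 916 of 14533 genes in the main analysis, were 1797 of 34295 without a filter. They were 1337 and 1882 with voomWithQualityWeights without and with surrogate variables, and 1188 with the replicate block. With a sample left out they were 425 to 1257, the lowest without Postn-/- replicate 3. In the surrounding lists DESeq2 called 1 gene, *Itga10*. Unadjusted calls among ligands, always with *Postn* among them, were 2 in the main analysis and 8 without a filter. They were 6 and 7 with voomWithQualityWeights without and with surrogate variables and 5 with the replicate block. Those among membrane partners, 0 in the main analysis, were 2 with surrogate variables. Those among other chains and among adaptors, 1 each, ran from 1 to 2 and from 0 to 3 over the alternatives. The log2 fold change of *Itgb8* turned to 0.14 and 0.29 with voomWithQualityWeights without and with surrogate variables and to 0.10 with the replicate block, and that of *Itga7* to 0.0030 with the block. With a sample left out, *Itgb8* ran from −0.49 to 0.53, *Itga3* from −0.10 to 0.43, *Itga6* from −0.49 to 0.31 and *Itga7* from −0.24 to 0.30. Members with a positive log2 fold change, 7 in the main analysis, numbered 6 to 9 with a sample left out and 9 with the replicate block. The cause was not tested. Same-numbered samples had correlated deviations of 0.08, 0.16 and 0.14, and 6 of 6 samples correlated best with their own number, but no label pairs them. *Itgb3* and *Itga8* could not be fitted under the filter of CPM above 1 in all 6 samples. Both genes had few reads, 20 to 44 per sample for *Itgb3* and 8 to 57 for *Itga8*.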
